A study of Oryza sativa Indica Group with 6 samples.

Results

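LEA19, Dhn1, OsSAPK3 and OsSAPK7 are 4 rice genes of water stress and abscisic acid biology, and 6 probe sets of the Affymetrix Rice Genome array mapped to them alone. They were found by symbol or synonym, with or without the prefix Os, among 17905 genes that have a probe set of their own and 57258 probe sets other than the manufacturer's controls. The genes were chosen by their measured signal differences on these same arrays, each in 1 comparison: LEA19 for Osoc against OsPE, and Dhn1, OsSAPK3 and OsSAPK7 for Ossl against Osoc. Those values are therefore given as description, without a test.

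The arrays were hybridized with biotin-labelled cRNA made from total RNA of seedlings, collected 15 days after germination under optimal growing conditions. The seedlings belong to 3 Basmati T-DNA insertional mutant lines, called OsPE, Osoc and Ossl. Each line has 2 arrays, which the series describes as biological replications. All 6 samples carry an insertion, and the sites of the insertions, the genes they interrupt and the number of plants behind an array are not stated in these sources. No untransformed plants were analysed here, so every difference is between mutant lines and none is a difference from the wild type. The p-values measure the spread between these arrays.

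Abscisic acid is the hormone through which plants signal water shortage. Its receptors of the PYL family bind the hormone and block the phosphatases of PP2C clade A, which otherwise hold the SnRK2 kinases inactive. In rice these kinases are called SAPK, for stress/ABA-activated protein kinase, and once active they phosphorylate bZIP transcription factors that switch on target genes. Among the targets are the late embryogenesis abundant (LEA) proteins and the dehydrins, a class of LEA proteins. Both are hydrophilic proteins that accumulate in drying seeds and in leaves under drought, salt or cold, and are thought to protect other proteins and membranes.

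Markers of green tissue were checked against the label. All 5 matched genes were above the 40th percentile of every array, led by the light-harvesting gene LHCP at 47934.2 to 62768. Their summed signal was 123075 and 124403 on the OsPE arrays, 119938 and 125899 on the Osoc arrays and 122208 and 140557 on the Ossl arrays. Members of the list stood apart in Osoc all the same, in both directions. PORA, of chlorophyll synthesis, read 2074 and 2042.7 there and 863.8 to 982.7 on the other arrays. GSA, of the same route, read 10205.5 and 10162.1 against 6604.2 to 6910.4. LHCP went the other way, at 49842.8 and 47934.2 in Osoc and 53328.2 to 62768 on the other arrays. RBCS and RA in Osoc lay within the range of the other arrays. LEA genes are seed genes as well, so grain markers were read too. The 9 matched grain genes summed to 6972 and 7120 in OsPE, 6901 and 7228 in Osoc, and 6229 and 7173 in Ossl, so the lines overlapped. Most of that sum came from the starch branching enzyme gene SBE at 4528 to 5530.7 and from Gt1 at 1086.6 to 1391.9. Of the 9 grain genes 5 were above the 40th percentile on every array. Beside SBE and Gt1 they included Wx at 248.9 to 437.2 and the glutelin gene GluB5 at 53.5 to 94. The glutelin genes GluB4 at 3 to 40.2 and Gt2 at 1.4 to 21.5 were near the floor. Of 7 matched root genes 3 were above the percentile on every array. All 7 summed to 2002 and 2192 in OsPE, 1951 and 1953 in Osoc, and 1820 and 1846 in Ossl, lowest in Ossl without overlap. Most of that sum came from Lsi1 at 1410.5 to 1673.3. The dim genes PT11 (66.4 and 61.6) and IRT1 (36.2 and 42.9) were instead highest in Ossl, against at most 27.7 and 20.3 on the other arrays. In whole seedlings, fewer cells of a type and less RNA per cell cannot be told apart.

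LEA19, on chromosome 5 and also listed as OsLEA3-1, encodes a late embryogenesis abundant protein. Its single probe set read 340.9 and 418.5 in OsPE, 1180.4 and 1080.6 in Osoc, and 1039.8 and 1076.2 in Ossl. The OsPE arrays were thus low, and the arrays of the other lines lay together at a higher level. In Osoc the mean was 1130.5 ± 70.6 (SD, n = 2) against 379.7 ± 54.9 in OsPE, a ratio of 2.91 on the scale of signal + 16. This is the difference that drew attention to the gene. Over the same OsPE arrays, whose low values took part in that choice, LEA19 rose 2.73-fold in Ossl, to 1058 ± 25.7 (log2 difference 1.45, SE 0.12, limma adjusted p = 8.25e-06). That test is therefore not independent of how the gene was chosen. Ossl and Osoc differed by -0.09 (log2, 95% interval -0.35 to 0.16, limma adjusted p = 0.711), so the order of these lines is not settled. The name of this probe set ends in s_at, which marks probes that can match several transcripts, and cross-hybridization from a related gene was not tested.

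Dhn1 (LOC4330265), on chromosome 2 and also listed as LIP9, encodes a dehydrin. Its bright probe set read 1483.7 and 1435.4 in OsPE, 1221.6 and 1200.8 in Osoc, and 1977.7 and 1978.4 in Ossl. The lines did not overlap, with Ossl highest and Osoc lowest. Separation of a single pair of lines was common with 2 arrays a line. Of all probe sets tested, 49.2% did not overlap between Osoc and OsPE, 49.2% between Ossl and OsPE and 49.9% between Ossl and Osoc. The share separated in every pair at once was not computed. Between Ossl and Osoc, the pair for which Dhn1 was named, the ratio was 1.62. Against OsPE, Dhn1 rose 1.35-fold in Ossl, from 1459.6 ± 34.2 to 1978 ± 0.495 (log2 difference 0.43, SE 0.078, limma adjusted p = 0.00396). That call ended without OsPE replicate 2 (adjusted p = 0.0532). Osoc differed from OsPE by -0.27 (log2, 95% interval -0.43 to -0.10) and did not pass (limma adjusted p = 0.0609).

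Dhn1 has a pair of further probe sets, both near the floor of the arrays. The first of them read 62.6 and 42.1 in OsPE, 40.6 and 55.3 in Osoc, and 16.6 and 27.4 in Ossl. These values run against the bright probe set, since Ossl was the lowest line, and Ossl against OsPE did not pass (limma adjusted p = 0.323). The other read between 2.6 and 38.5 and was not tested, because its signal exceeded the 40th percentile of the array, which was 22.5 to 26 over the arrays, on 1 of 6 arrays only (Ossl replicate 1). The direction given for Dhn1 thus rests on its bright probe set, and 5 of the 6 probe sets of the 4 genes entered the tests.

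OsSAPK3 and OsSAPK7 encode kinases of the SnRK2 family. OsSAPK3 (LOC4349411), on chromosome 10 and also listed as REK, has 1 probe set, which read 1780.6 and 1768.4 in OsPE, 1457 and 1373.4 in Osoc, and 1933.9 and 2230.8 in Ossl. Osoc was lowest and Ossl highest without overlap, as for the bright Dhn1 probe set. Of all probe sets tested, 49.2% to 49.9% did not overlap between a given pair of lines. The ratio of Ossl to Osoc, for which OsSAPK3 was named, was 1.46. Against OsPE, OsSAPK3 fell 1.25-fold in Osoc, from 1774 ± 8.63 to 1415 ± 59.1 (log2 difference -0.32, SE 0.086, limma adjusted p = 0.0414). This call lay close to the threshold and ended when any array of OsPE or Osoc was left out, with adjusted p from 0.106 (without Osoc replicate 1) through 0.188 (without OsPE replicate 2) and 0.206 (without OsPE replicate 1) to 0.233 (without Osoc replicate 2). Ossl differed from OsPE by 0.23 (log2, 95% interval 0.04 to 0.41) and did not pass (limma adjusted p = 0.153).

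OsSAPK7 (LOC4335877) lies on chromosome 4, is also listed as RK4 and has 1 probe set. It read 549 and 650.5 in OsPE, 571.2 and 471.5 in Osoc, and 887.6 and 938.2 in Ossl. Ossl stood above the other lines, which overlapped. Its ratio of Ossl to Osoc was 1.74, the value that named the gene. In Ossl the signal rose 1.51-fold over OsPE, from 599.8 ± 71.8 to 913 ± 35.8 (log2 difference 0.60, limma adjusted p = 0.0132), and the call ended without OsPE replicate 1 (adjusted p = 0.141) or without Ossl replicate 2 (adjusted p = 0.0908). Osoc and OsPE differed by -0.20 (log2, 95% interval -0.48 to 0.08, limma adjusted p = 0.458).

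**Figure D1:**
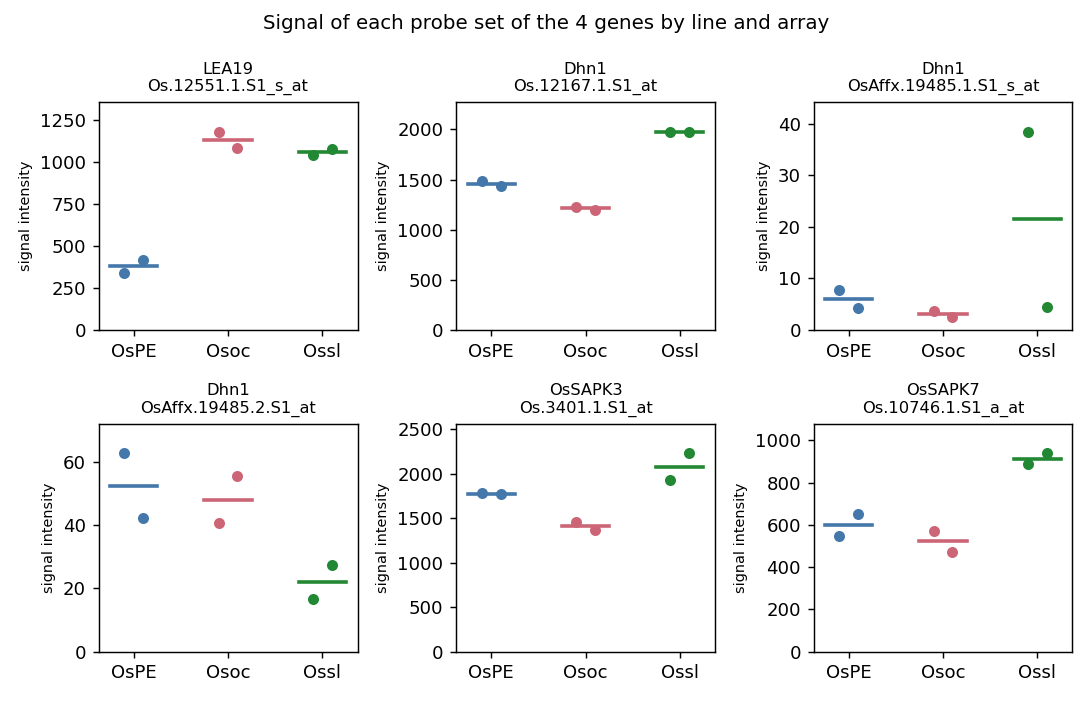
Signal intensity (linear scale, from 0) of the 6 probe sets of LEA19, Dhn1, OsSAPK3 and OsSAPK7. Points are the 2 arrays of each line and bars their mean; LEA19 is low in OsPE alone, while the bright Dhn1 probe set, OsSAPK3 and OsSAPK7 are highest in Ossl, and the dim Dhn1 probe set that was tested runs the other way.

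These tests share arrays. OsPE is the partner in the tests of Osoc and of Ossl, and each test above has a line in common with the comparison that named its gene. The p-values of the 4 genes are therefore not independent of their choice. Across the array 7.46% of the 39629 probe sets tested passed in the comparison of Osoc with OsPE, with 3.61% up in Osoc and 3.85% down. For Ossl set against OsPE 7.92% passed, with 4.11% up in Ossl and 3.81% down. Ossl set against Osoc gave 11.2%, with 5.93% up in Ossl and 5.27% down. Of the 4 genes, LEA19, Dhn1 and OsSAPK7 passed for Ossl against OsPE, all higher in Ossl. Of the other 3 genes, whose choice did not use Osoc against OsPE, OsSAPK3 passed there, lower in Osoc. The members were picked for large values in this data set, so these counts are no measure of enrichment. The calls also depend on the variance model: without a trend of the variance on the signal, the only call of the 4 genes that passed was that of LEA19 for Ossl against OsPE (adjusted p = 0.0442).

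Some technical measures also differed between the lines. RNAs of known sequence added to the samples as handling controls read lower on average in Ossl than in the other lines. The mean log2 differences were -1.19 for probe sets of the 5′ end and -0.54 for those of the 3′ end. The drop was uneven between these RNAs. At the 5′ end DapX read 230.9 and 159.2 in Ossl against 824.7 to 1037.2 on the other arrays. LysX read 281.3 and 295 against 296.6 to 394.6. Ossl was also the line with the highest signals of OsSAPK3, OsSAPK7 and the bright Dhn1 probe set. The ratio of 3′ to 5′ signal of the actin control probe sets was 7.53 and 10.85 on the Ossl arrays, 7.33 and 7.85 on the OsPE arrays and 5.71 and 4.37 on the Osoc arrays. The same ratio for GAPDH was 8.97 and 9.26, 8.65 and 8.99, and 7.62 and 8.28. Both ratios were thus lowest in Osoc, as were the signals of Dhn1 and OsSAPK3. The part of the added RNAs and of these ratios in the results was not tested.

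Other dehydrin and LEA genes were read for comparison. Of 6 that matched beside LEA19 and Dhn1, 5 were tested. RAB21, a dehydrin gene known for its induction by abscisic acid, was like LEA19 in that OsPE was the low line. Its brighter probe set read 1270.1 and 1055 in OsPE, 2084.6 and 1828.1 in Osoc, and 2281.7 and 2203.8 in Ossl. RAB21 rose 1.68-fold in Osoc (limma adjusted p = 0.000757) and 1.92-fold in Ossl (adjusted p = 7.73e-05), and its other probe set rose 1.56-fold and 1.88-fold (adjusted p = 0.00106 and 4.34e-05). Ossl and Osoc differed by 0.20 (log2, 95% interval -0.02 to 0.42, adjusted p = 0.263). The changes were smaller than the 2.91 and 2.73 of LEA19, a contrast between probe sets that was not tested.

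RAB21 is next to RAB16B on chromosome 11 of the reference annotation, with no annotated gene between them, and RAB16D and RAB16C are likewise next to each other, 2 annotated genes apart from RAB16B. These genes are paralogs, and cross-hybridization between them was not tested. Their probe sets did not all give the same order of lines. RAB16B read 416.4 and 343.5 in OsPE, 398.8 and 429.5 in Osoc, and 663.6 and 563.7 in Ossl, so only Ossl stood apart. It rose 1.59-fold in Ossl against OsPE (limma adjusted p = 0.0132), a call that ended without OsPE replicate 2 (0.136) or Ossl replicate 1 (0.101). Against Osoc RAB16B rose 1.46-fold (adjusted p = 0.0297), and this ended without Osoc replicate 1 (0.16), Osoc replicate 2 (0.093) or Ossl replicate 1 (0.184).

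RAB16C read 876.4 and 864.2 in OsPE, 736.8 and 697.5 in Osoc, and 976.6 and 1056.9 in Ossl. The order was that of Dhn1 and OsSAPK3. RAB16C rose 1.41-fold in Ossl against Osoc (limma adjusted p = 0.00613; 0.0562 without Osoc replicate 2), while the difference of Osoc from OsPE was -0.27 (log2, adjusted p = 0.132) and that of Ossl from OsPE was 0.22 (adjusted p = 0.229). RAB16D at 10 to 73.1 and OsEm, which encodes an LEA protein of embryos, at 34 to 64.2 did not pass in any comparison. The dehydrin gene rab25 read 1.8 to 26.8 and was not tested.

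Counted over these 5 other dehydrin and LEA genes, 1 rose, 0 fell and 4 did not pass in Osoc against OsPE, with a median log2 difference of 0.12 beside -0.03 over all probe sets tested. For Ossl against OsPE 2 rose, 0 fell and 3 did not pass, with medians of 0.33 and -0.02. For Ossl against Osoc 2 rose, 0 fell and 3 did not pass, with medians of 0.20 and 0. Over all probe sets tested 3.61%, 4.11% and 5.93% rose in these comparisons.

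**Figure D2:**
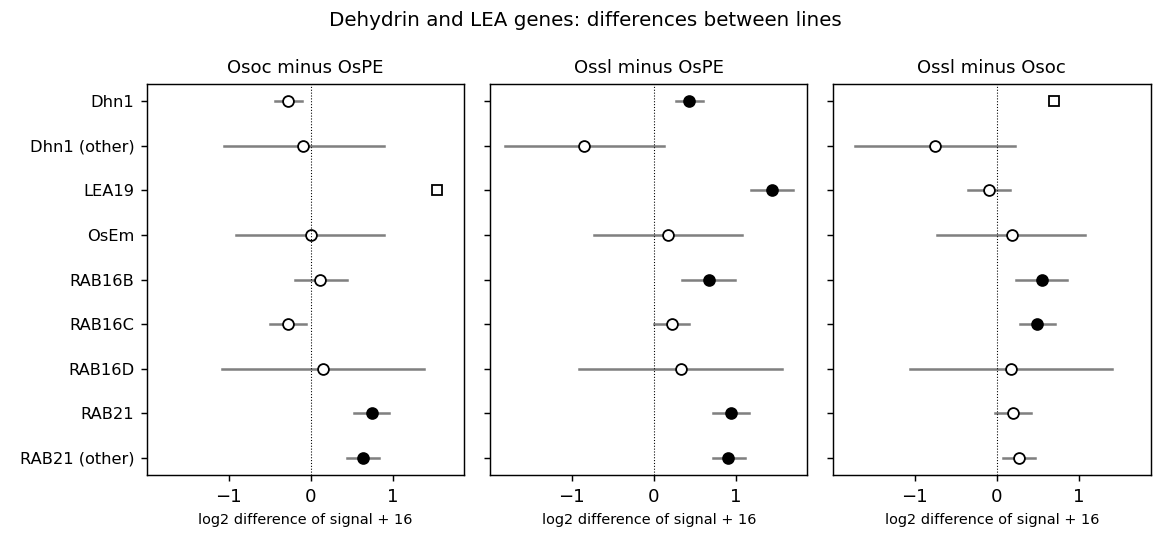
Log2 differences of signal + 16 between lines for the dehydrin and LEA probe sets tested, with 95% intervals from limma. Filled circles passed at adjusted p below 0.05, open circles did not, and open squares are the differences that named a gene, drawn without an interval; "other" is a dimmer probe set of the same gene. RAB21 is higher in both Osoc and Ossl than in OsPE on both of its probe sets.

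All 10 SAPK genes had a probe set above the filter, so the pair could be set beside the whole kinase family. Beside OsSAPK3 and OsSAPK7, 3 of 8 rose in Ossl against Osoc, 0 fell and 5 did not pass (median log2 difference 0.20, against 0 over all probe sets tested). Of all probe sets tested 5.93% rose and 5.27% fell there. OsSAPK6 rose 1.27-fold, from 2723 ± 67.6 to 3459 ± 80.1 (limma adjusted p = 0.00709; 0.0667 without Osoc replicate 2). OsSAPK4 rose 1.21-fold (adjusted p = 0.0339), but leaving out any of the 6 arrays ended the call (0.0593 to 0.201). OsSAPK2 rose 1.23-fold (adjusted p = 0.0437), which ended without OsPE replicate 1 (0.054), OsPE replicate 2 (0.053), Osoc replicate 1 (0.259), Osoc replicate 2 (0.082) or Ossl replicate 2 (0.228), and with the replicate number as a block (0.0529). The values of OsSAPK3 and OsSAPK7 were the largest of the family in this comparison, as their choice implies.

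In Osoc against OsPE, 2 of the 8 other SAPK genes fell, 0 rose and 6 did not pass (median -0.18, against -0.03). Of all probe sets tested 3.85% fell and 3.61% rose there. OsSAPK1 read 1516.2 and 1564.1 in OsPE, 1200.3 and 1147.7 in Osoc, and 1348.5 and 1380.2 in Ossl. The lines did not overlap and Ossl lay in between, where 49.2% to 49.9% of all probe sets tested did not overlap between a given pair. OsSAPK1 fell 1.31-fold (adjusted p = 0.0124), and OsSAPK2 fell 1.26-fold, from 2646 ± 222 to 2091 ± 127 (adjusted p = 0.0316). Leaving out any array of OsPE or Osoc ended these calls, with adjusted p of 0.05 to 0.117 for OsSAPK1 and 0.0555 to 0.291 for OsSAPK2. In Ossl against OsPE 0 of the 8 passed by limma, 1 of them (OsSAPK4) had an unadjusted p below 0.05, and the median was -0.01. OsSAPK7 was the single kinase gene of the 10 that passed there.

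OsSAPK8, OsSAPK9 and OsSAPK10, the kinases known to be activated by abscisic acid as well as by osmotic stress, did not pass in any comparison. OsSAPK8 read 2622.1 to 3114.1 in OsPE, 2463.3 to 2628.7 in Osoc and 2550.6 to 3260.9 in Ossl. For OsSAPK10 the Ossl arrays read 325.2 and 493.8 and spanned those of Osoc. For OsSAPK9 the difference of Ossl from Osoc was 0.06 (log2, 95% interval -0.12 to 0.24, limma adjusted p = 0.726). OsSAPK5 read 2374.9 to 2907.4 over all arrays and did not pass either.

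**Figure D3:**
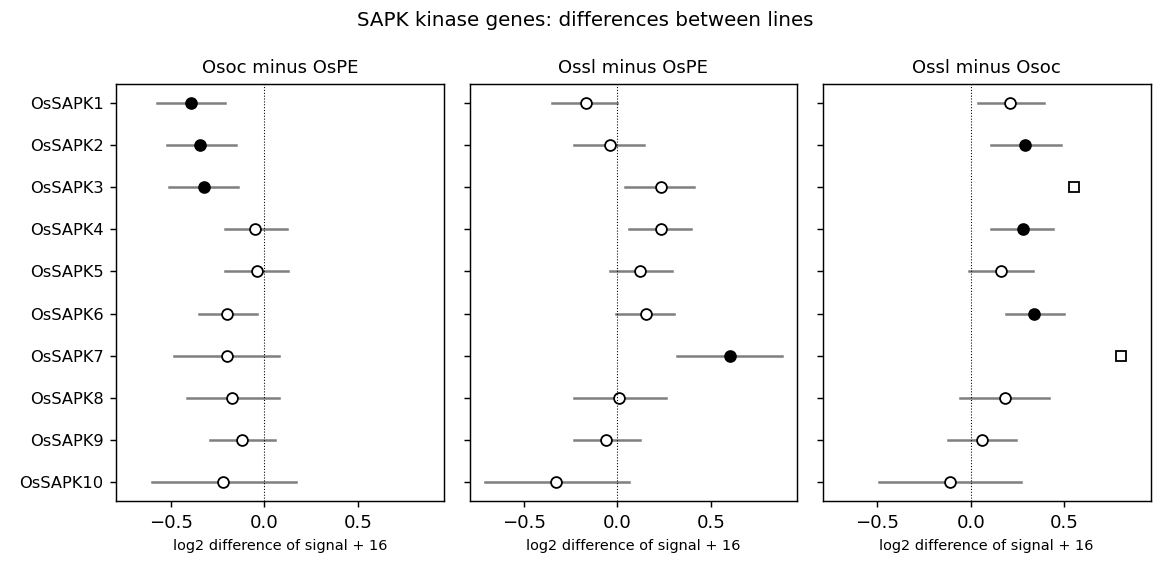
Log2 differences of signal + 16 between lines for the 10 SAPK genes, with 95% intervals from limma; filled circles passed at adjusted p below 0.05, open circles did not, and open squares mark the differences that named OsSAPK3 and OsSAPK7, drawn without an interval. Osoc minus OsPE is below 0 for all 10, with OsSAPK1, OsSAPK2 and OsSAPK3 past the threshold. OsSAPK5 (-0.04) and OsSAPK4 (-0.05) lie near the median of -0.03 over all probe sets tested. OsSAPK3 and OsSAPK7 were chosen on a comparison that used the same Osoc arrays.

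The steps before the kinases were next read. A single receptor gene matched, OsPYL11, at 3429.9 to 4373.6, and it did not pass in any comparison. In Ossl against Osoc, 5.93% of all probe sets tested rose and 5.27% fell. Of 7 matched phosphatase genes of clade A, which keep SnRK2 kinases inactive, 5 rose in that comparison, 0 fell and 2 did not pass (median log2 difference 0.36). The clearest was OsPP2C30, which read 2516.7 and 2719.6 in OsPE, 1400.4 and 1431.7 in Osoc, and 2162.8 and 2196.2 in Ossl. OsPP2C30 fell 1.84-fold in Osoc against OsPE (limma adjusted p = 2.96e-05) and was 1.53-fold higher in Ossl than in Osoc (adjusted p = 0.000198). OsPP2C06, OsPP2C09, PP2C53 and PP2C68 rose 1.4-fold, 1.28-fold, 1.27-fold and 1.6-fold in Ossl against Osoc (adjusted p = 0.0141, 0.0189, 0.0381 and 0.0127). Each of these 4 calls ended when some single array was left out: without Osoc replicate 1 the adjusted p was 0.085, 0.177, 0.0954 and 0.106. OsPP2C06 and OsPP2C09 also fell in Osoc against OsPE (1.43-fold and 1.28-fold, adjusted p = 0.014 and 0.0297; 0.0885 and 0.235 without Osoc replicate 1), and no phosphatase gene passed in Ossl against OsPE, where OsPP2C30 alone had an unadjusted p below 0.05 (adjusted p = 0.0529). OsPP2C08 and the very dim OsPP2C51 did not pass anywhere.

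Downstream of the kinases, OsBZIP23, a bZIP activator of abscisic acid and drought responses, read 4215.3 and 4201.9 in OsPE, 3223.1 and 3182.3 in Osoc, and 4122.2 and 4061.9 in Ossl. Osoc was the low line. OsBZIP23 fell 1.31-fold in Osoc against OsPE (limma adjusted p = 0.00193) and rose 1.28-fold in Ossl against Osoc (adjusted p = 0.00249). TRAB1, a bZIP factor of the same response, fell 1.27-fold in Osoc against OsPE (adjusted p = 0.0274), which ended without OsPE replicate 1 (0.137), OsPE replicate 2 (0.173) or Osoc replicate 1 (0.22). OsVP1, a seed regulator, read 2.4 to 18.6 and was not tested.

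Among genes of hormone turnover, ABA8OX1, a hydroxylase that breaks abscisic acid down, read 1062.6 and 1115 in OsPE, 819.1 and 859.1 in Osoc, and 745 and 695 in Ossl. It was highest in OsPE. ABA8OX1 fell 1.5-fold in Ossl against OsPE (limma adjusted p = 0.00251) and 1.29-fold in Osoc against OsPE (adjusted p = 0.0392), and the latter call ended without any OsPE or Osoc array (0.12 to 0.249). ABA8OX2 went the other way, at 1173.5 and 1046.1 in OsPE, 1448 and 1306.8 in Osoc, and 1174.4 and 1500.1 in Ossl. Its differences from OsPE were 0.31 in Osoc and 0.26 in Ossl (log2) and did not pass (limma adjusted p = 0.158 and 0.239). OsZEP1, an epoxidase of the synthesis route, did not pass either. The hormone itself was not measured.

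Over all 26 matched and tested genes other than the 4, 1 rose and 8 fell in Osoc against OsPE, 2 rose and 1 fell in Ossl against OsPE, and 11 rose and 0 fell in Ossl against Osoc. The medians were -0.18, 0.02 and 0.21 (log2). Over all probe sets tested 3.61% rose and 3.85% fell in Osoc against OsPE. The shares were 4.11% and 3.81% in Ossl against OsPE, and 5.93% and 5.27% in Ossl against Osoc. The SE was larger for a dim gene (0.57 for RAB16D) than for a bright one (0.061 for OsBZIP23), and shares for probe sets of like signal were not computed. Osoc is a partner in both comparisons with many calls and the lists were drawn up with earlier results known, so the counts are a description. They shrank when arrays were left out. The 11 genes higher in Ossl than in Osoc became 4 without Osoc replicate 1, 5 without Osoc replicate 2, 6 without Ossl replicate 1 and 7 without Ossl replicate 2. The 8 genes lower in Osoc than in OsPE became 4 without Osoc replicate 2 and 2 without OsPE replicate 1, OsPE replicate 2 or Osoc replicate 1. The 2 genes higher in Ossl than in OsPE became 1 without OsPE replicate 2 or Ossl replicate 1.

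**Figure D4:**
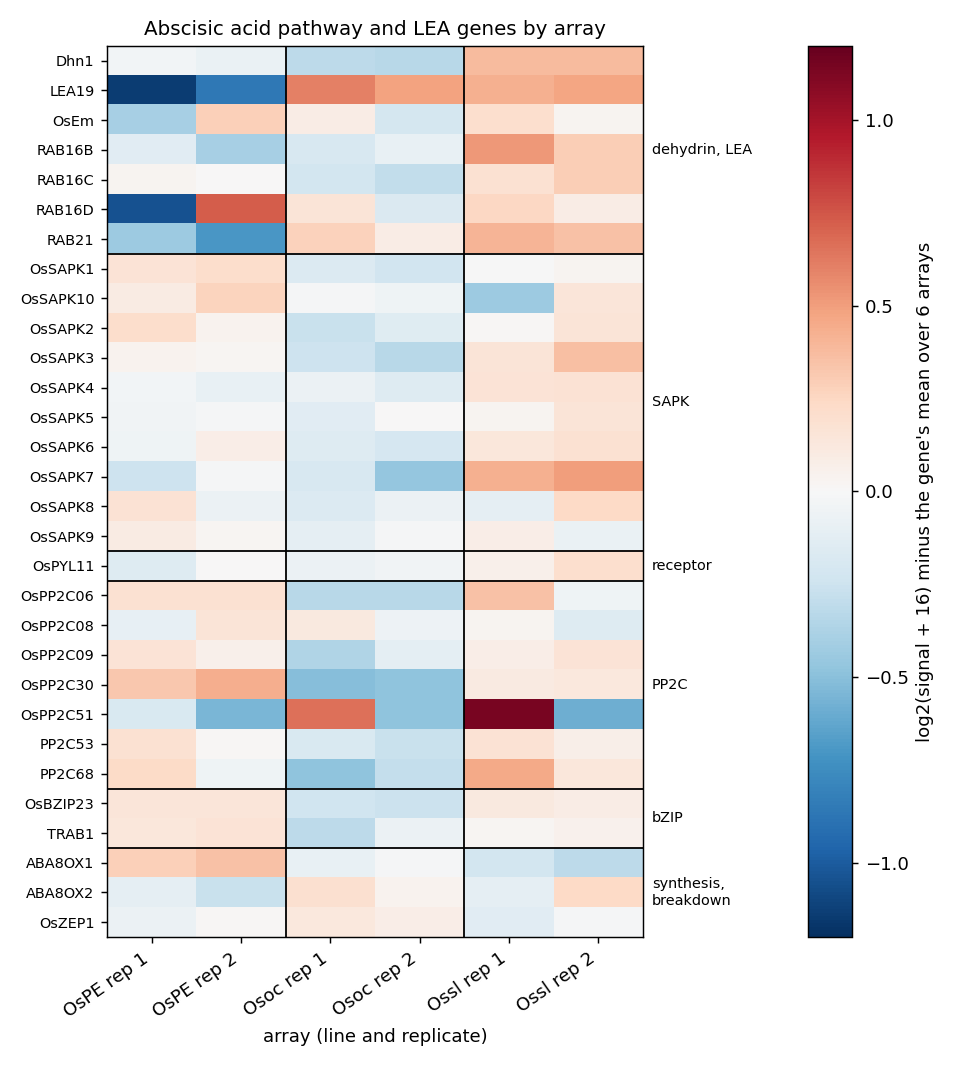
Log2(signal + 16) of each gene minus its mean over the 6 arrays (colour; red is higher), for the 30 genes tested, in rows by role and in columns by line and replicate. LEA19 and RAB21 are low on both OsPE arrays, whereas Dhn1, OsSAPK3, OsPP2C30 and OsBZIP23 are low on both Osoc arrays; RAB16D, OsEm and OsPP2C51 are dim and vary between replicates.

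The named genes with the most similar profile were found by the root mean square difference of centred log2 values over the 6 arrays, among 2908 probe sets of other named genes (2907 for Dhn1). The measure is a description, and the arrays compared are the same for every gene. For OsSAPK3 the nearest was RAB16C, at 0.037, followed by AGO2, an Argonaute of small RNA silencing, at 0.04 and the expansin-like gene EXLA2 at 0.049, while the profile of OsSAPK3 itself varied by 0.23 about its mean. For Dhn1 they were DAHPS2, of the first step of the shikimate pathway, at 0.039, the BURP domain gene BURP3 at 0.06 and the ubiquitin-conjugating enzyme gene UBC5B at 0.064. DAHPS2 read 3527.4 and 3569 in OsPE, 2794 and 2855 in Osoc, and 4829.6 and 4809.7 in Ossl.

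For OsSAPK7 the nearest were the tubulin gene TUB5 at 0.079, AT4 at 0.086 and RGP1, of cell wall sugar metabolism, at 0.09. Dhn1 stood at rank 17 for OsSAPK7 and OsSAPK3 at rank 74, whereas LEA19 stood at rank 2712 of 2908. Seen from OsSAPK3, OsSAPK7 was at rank 415, its distance of 0.18 being close to the 0.23 by which OsSAPK3 itself varied. For LEA19 the nearest were G1L2 at 0.16, HSP18.1, of a small heat shock protein, at 0.18 and the tiller angle gene TAC1 at 0.21. G1L2 read 25.7 and 24.6 in OsPE and TAC1 read 7.9 and 5.8, close to or below the 40th percentile of those arrays. RAB21 was at rank 24 for LEA19, with 0.37, and its other probe set at rank 31. Among the 4 genes, then, the bright Dhn1 probe set, OsSAPK3 and OsSAPK7 lay within 0.11 to 0.18 of each other and 0.71 to 0.78 away from LEA19. LEA19 itself varied by 0.71 about its mean, so a flat profile would lie 0.71 away too. Seen from LEA19, OsSAPK7 stood at rank 1029, Dhn1 at 1410 and OsSAPK3 at 1757 of 2908. LEA19 was named for Osoc against OsPE and the other 3 for Ossl against Osoc. The split between LEA19 and the other 3 follows in part from how they were chosen.

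**Figure D5:**
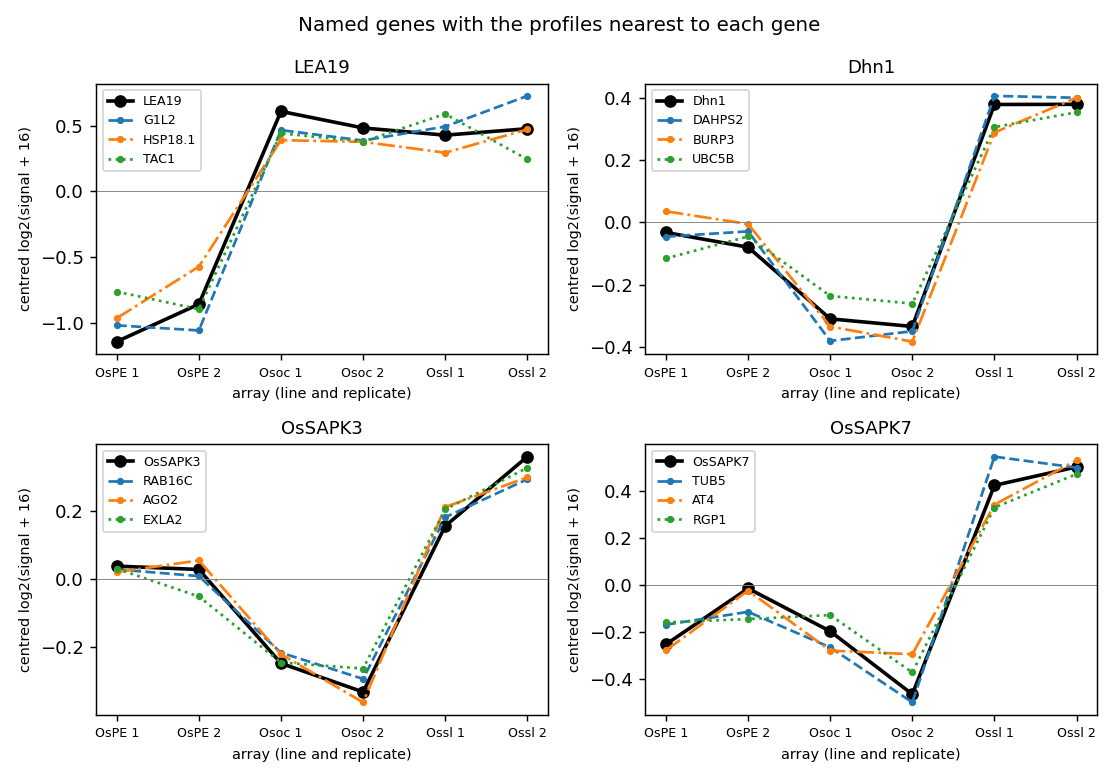
Centred log2(signal + 16) on the 6 arrays for LEA19, Dhn1, OsSAPK3 and OsSAPK7 (black) and the 3 named genes nearest to each (coloured). Lines join the arrays only to guide the eye; LEA19 and its neighbours step up from OsPE to the other lines, and the members in the other 3 panels are highest in Ossl, with Osoc below OsPE for Dhn1 and OsSAPK3 and overlapping it for OsSAPK7.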

How the data were processed

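For each array the authors deposited a table with 1 intensity for every probe set. The submitters' processing notes name GCOS 1.2, and no source says which signal algorithm it ran. Every array had a mean of 500.1 without its lowest and highest 2%, so the authors' deposited intensity values were already scaled and were kept. The 123 control probe sets were left out. Of 57258 others, 39629 exceeded the 40th percentile of their array on at least 2 of 6 arrays and were tested on log2(signal + 16) with limma 3.58.1 in R 4.3.3, all arrays in 1 fit, eBayes with a variance trend (3 residual and 8.98 prior degrees of freedom), two-sided, with Benjamini-Hochberg adjusted p below 0.05 as the threshold. The number of arrays limits the precision. Folds were taken on signal + 16, which shrinks those of dim probe sets. The fit was also run on simulated data whose noise followed the fitted variance trend, so that run cannot judge the choice of the trend.

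Probe sets were named by a table pairing them with genes and, through its gene IDs, by the reference annotation (ASM3414082v1, Oryza sativa Japonica Group); 22436 probe sets had 1 gene, 95 several and 34850 none. Whether the probes match Basmati sequence was not checked. A gene of a list was represented by its brightest probe set tested, and 3 genes that matched by letters alone were dropped from a list: TRAB1, which has ABA1 as a synonym, and OsGT2 and OsGT3, which are other genes than the glutelin genes Gt2 and Gt3 kept as grain markers. The members and lists were chosen with earlier results of these data known. Text names every member probe set, every SAPK, dehydrin and LEA gene, other listed genes that passed, and the 3 nearest named genes per member. Other offsets, scalings, filters, variance models, a replicate block, fewer lines and leaving out each array were tried. Python 3.11.15, pandas 2.3.3 and matplotlib 3.10.9 made tables and figures.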

Additional observations from a re-analysis of the deposited data

How the results depend on the processing

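Beside the differences that chose the 4 genes, 91 differences of listed probe sets were recomputed under the alternatives (1 probe set did not pass the stricter filter). None of the 29 called ones changed sign, whereas 22 of the 62 that did not pass did so under some alternative. Of the 29 calls, 28 ended without the variance trend, 19 without some single array, 10 with median centring, 8 without the low-signal filter, 3 with quantile normalization and 1 with the replicate block. Without the trend, the probe sets passing fell from 2955 to 28 for Osoc against OsPE, from 3138 to 382 for Ossl against OsPE and from 4441 to 402 for Ossl against Osoc. Leaving out 1 array gave 1209 to 3309, 1504 to 2798 and 2367 to 3790. The lone array of a line was then assumed to vary like the others. Replicate numbers are shared between lines. Deviations of same-numbered arrays correlated at 0, 0.001 and 0.014, so no deviation shared across many probe sets was seen. A batch that touched few probe sets could leave these values near 0, so they cannot show whether arrays were handled in pairs. With the replicate block the counts were 2958, 3132 and 4423. LEA19 in Ossl against OsPE passed under all 15 alternatives (adjusted p from 1.52e-07 to 0.0442). These alternatives reuse OsPE arrays whose low values took part in choosing LEA19, so they are not independent of that choice. Without the trend, adjusted p was 0.144 for Dhn1 and 0.195 for OsSAPK7 in Ossl against OsPE, 0.324 for OsSAPK3 in Osoc against OsPE, and 0.161 and 0.0823 for RAB21 in Osoc and Ossl. The OsSAPK3 call also ended with quantile normalization (0.0507), median centring (0.11) and no filter (0.0791). Dhn1 in Osoc against OsPE passed with the stricter filter alone (0.0446). Median centring shifted differences by 0.01, -0.02 and -0.02 (log2). Signals near the 40th percentile, as for the dim Dhn1 probe sets, limit what could be seen.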
